A study of Homo sapiens with 12 samples.

Results

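The 10 genes described here are markers and regulators of the epithelial-mesenchymal transition. They were taken by gene symbol from the 58233 genes of a count table from MCF10-A cells, a non-tumour human mammary epithelial line. Of these genes, 7 are mesenchymal: the transcription factors SNAI2, ZEB1 and ZEB2, and CDH2, VIM, FN1 and TGFBI, which encode adhesion, cytoskeletal and matrix proteins. The other 3, OVOL1, ESRP1 and GRHL2, are epithelial regulators. All 10 symbols matched a gene, and 9 had counts high enough to be tested, GRHL2 being the exception.

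The 12 RNA-seq libraries came from 3 derivatives of the line, labelled Addback, B4-4 and Vector, each with the treatment labels EDTA and NA. There were 2 libraries in each of the groups Addback EDTA, Addback NA, B4-4 EDTA, B4-4 NA, Vector EDTA and Vector NA. All groups shared the same handling: passage in medium with 5% horse serum, then trypsin, then 3 hours in serum-free medium on poly-HEMA, a coating that stops cells from attaching. The series asks what the integrin α6β4, a laminin receptor of epithelial cells, does in detached cells. The sources used here give neither the meaning of NA nor the amount of EDTA, and do not say how each derivative was made or whether it was a single clone. EDTA is a chelator of calcium and other divalent cations, which cadherins and integrins need to bind their ligands. In bulk RNA of this kind, fewer cells of a type and less RNA per cell cannot be told apart.

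In an epithelial-mesenchymal transition, cells give up cell-cell junctions and apical-basal polarity and gain motility and matrix production. Transcription factors of the SNAIL and ZEB families bind E-box sequences and repress epithelial genes such as CDH1 (E-cadherin), while OVOL and grainyhead-like factors and the ESRP splicing factors maintain the epithelial state. MCF10-A cells are basal-like and are known to express some mesenchymal genes alongside epithelial ones.

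The shallowest library, B4-4 NA 2, held 15685376 counts and the deepest, Vector EDTA 2, held 22156173. Levels are given as CPM, counts scaled to a common library total. ITGB4, which encodes the β4 subunit, was at 182 to 395.5 CPM across the 4 libraries of B4-4 and at 1060 to 1850 CPM across the 8 others. The 2 libraries of B4-4 NA and those of Addback EDTA stood apart from each other: 389 and 228 of 10632 genes differed at least 2-fold between them, against 5 to 9 in the other pairs. Addback EDTA 2 was run on lane 7 and the other 11 libraries on lane 8, so lane and library cannot be told apart there. Markers of the labelled cell type were abundant: all 9 basal mammary genes passed the filter on low counts, and KRT5, a basal keratin, lay between 4319 and 6782 CPM. Of the 8 fibroblast markers, 4 passed the filter: COL1A1 at 9.96 to 24.4 CPM, DCN at 0.771 to 51.9 CPM, LUM at 1.15 to 4.06 CPM and PDGFRB at 0.3195 to 4.01 CPM. The other 4, COL1A2, COL3A1, PDGFRA and THY1, were at or below 0.448 CPM in each library. Of the 5 endothelial markers, PECAM1 was at 3.355 to 34.2 CPM, CDH5 was at 0 counts and the others were at or below 0.574 CPM. All 5 leukocyte markers were at or below 0.2296 CPM, with CD3E and LYZ at 0 counts.

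**Figure D1:**
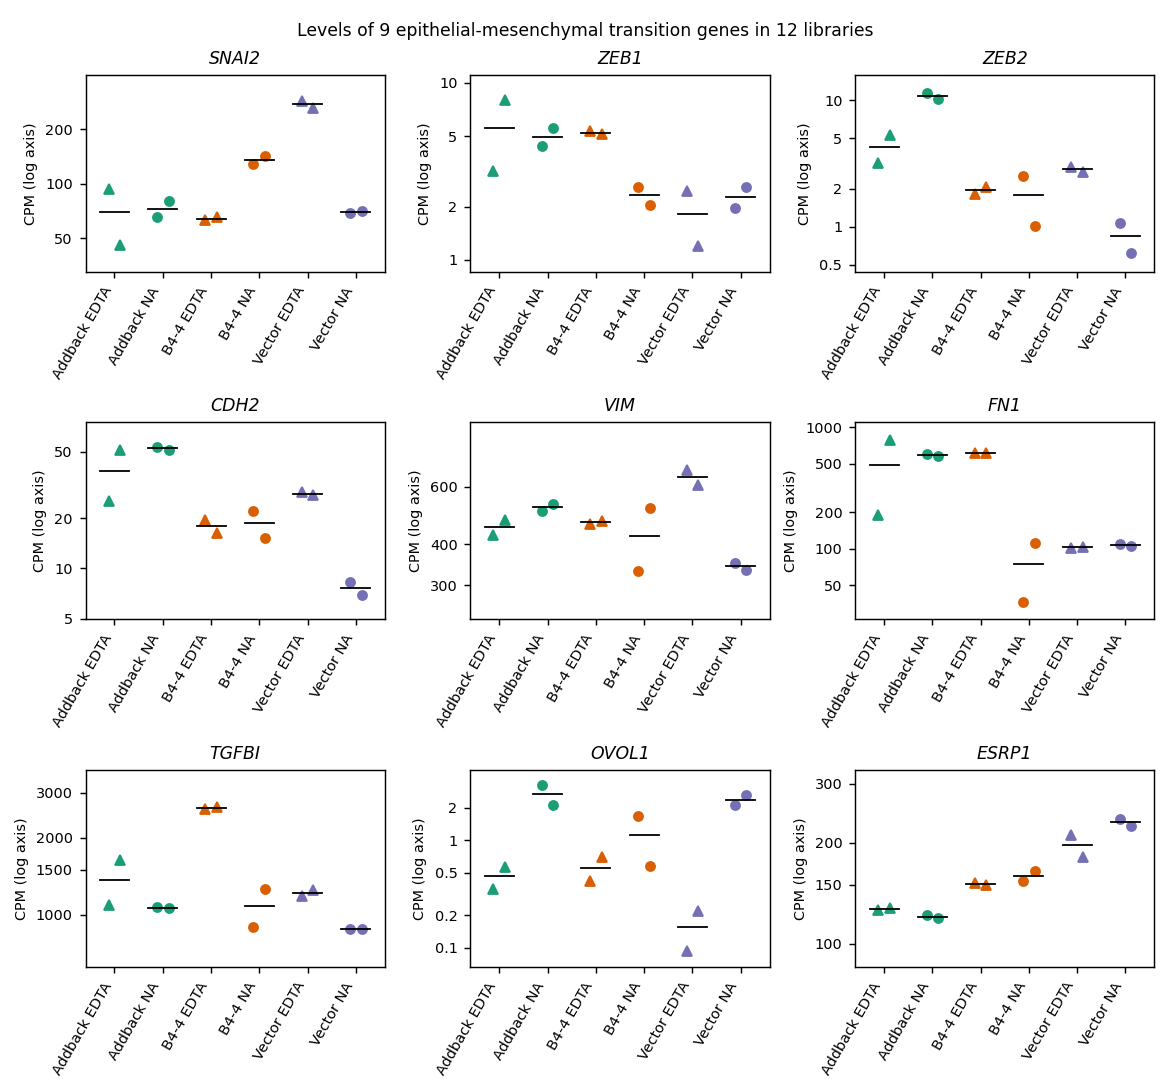
Level of 9 member genes (CPM, log axis) in each of 12 libraries, by group; triangles are EDTA and circles NA libraries, colours mark the derivative, and the black line is the mean of the 2 libraries. SNAI2 was highest in Vector EDTA, ZEB2 in Addback NA, TGFBI in B4-4 EDTA and ESRP1 in Vector NA.

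The 7 mesenchymal members did not share a pattern across the groups. SNAI2, VIM, CDH2 and ZEB2 were each higher in Vector EDTA than in Vector NA, and CDH2 and ZEB2 had their highest level in Addback NA. FN1 and TGFBI rose with EDTA in B4-4. ESRP1 followed the derivative and differed little with the treatment label. Scaled by exon length, TGFBI averaged 175 CPM per kb over the 12 libraries and VIM 91.9, with ESRP1 at 33.67, SNAI2 at 33.65, FN1 at 18.95 and CDH2 at 5.48 CPM per kb. The lowest tested members per kb were ZEB1 at 0.427, OVOL1 at 0.318 and ZEB2 at 0.149 CPM per kb. ZEB1, ZEB2 and OVOL1 therefore rest on few reads and have the widest counting error.

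SNAI2 (ENSG00000019549, chromosome 8, 48917604 to 48921740, minus strand, GRCh38) encodes SLUG, an E-box-binding repressor of epithelial genes that basal mammary cells also use. Its level was 93.4 and 45.7 CPM in Addback EDTA and 65.2 and 80.3 CPM in Addback NA. In B4-4 EDTA it was 62.9 and 65.1 CPM, against 129 and 142 CPM in B4-4 NA. In Vector EDTA it was 285 and 261 CPM, against 69.2 and 70.3 CPM in Vector NA. The 2 Vector EDTA libraries were above all others, the 2 B4-4 NA libraries came next, and the other 8 libraries overlapped. EDTA thus went with a rise in Vector, by a log2 fold change of 1.97 ± 0.27 (SE, adjusted p = 0.0016), and with a fall in B4-4, of -1.08 ± 0.26 (adjusted p = 0.0212). The call in B4-4 ended when any of the 4 B4-4 libraries was left out (adjusted p = 0.0736 to 0.141). In Addback the change was -0.07 ± 0.26 (adjusted p = 0.894), and without Addback EDTA 1, the higher of its pair, it became -0.66 (adjusted p = 0.00838).

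ZEB2 (ENSG00000169554, chromosome 2, 144364364 to 144524583, minus strand), a zinc-finger repressor of CDH1, varied 18.4-fold between its highest and lowest library. It was measured at 3.16 and 5.345 CPM in Addback EDTA and at 11.4 and 10.2 CPM in Addback NA. B4-4 EDTA had 1.81 and 2.08 CPM and B4-4 NA 2.53 and 1.02 CPM. Vector EDTA had 2.965 and 2.703 CPM, against 1.065 and 0.617 CPM in Vector NA. The 2 Addback NA libraries stood above all others and did not overlap any group, while B4-4 NA overlapped both B4-4 EDTA and Vector NA. ZEB2 rose with EDTA in Vector (1.76 ± 0.42, adjusted p = 0.0151) and fell with EDTA in Addback (-1.34 ± 0.33, adjusted p = 0.018). The call in Vector ended without Vector EDTA 1, Vector EDTA 2 or Vector NA 2 (adjusted p = 0.051 to 0.162). The call in Addback ended without Addback EDTA 1, Addback NA 1 or Addback NA 2 (adjusted p = 0.0695 to 0.134).

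ZEB1 (ENSG00000148516, chromosome 10, 31318495 to 31529814, plus strand), the paralogue of ZEB2, was at 3.16 and 7.96 CPM in Addback EDTA and at 4.42 and 5.53 CPM in Addback NA. It was at 5.33 and 5.11 CPM in B4-4 EDTA, against 2.58 and 2.04 CPM in B4-4 NA. The Vector EDTA libraries had 2.455 and 1.197 CPM, against 1.96 and 2.57 CPM in Vector NA. The Addback and B4-4 EDTA libraries lay above the B4-4 NA and Vector libraries without overlap. No EDTA change of ZEB1 passed the threshold in any derivative; the one in B4-4 was 1.17 ± 0.42 (adjusted p = 0.0682) and passed with DESeq2 (adjusted p = 0.0439). The antisense gene ZEB1-AS1 shares 366 bases of exon with ZEB1 and was at 0.569 to 4.89 CPM, a range like that of ZEB1 itself. The strand setting of the counting is not given in the sources used here. Reads within the 366 shared bases, of 8650 exon bases of ZEB1, therefore cannot be told apart.

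The promoters of ZEB1 and ZEB2 are printed because the 2 repressors differed in their pattern across the groups. Each RefSeq window (GRCh38.p14) runs from 250 bases before an annotated start to 50 bases after it, 5′ to 3′ on the gene's strand. Capitals mark matches, on either strand, to any of 4 motifs. The first is the E-box CACCTG. The second is the AP-1 site TGANTCA. A SMAD element was searched as CAGACA. The grainyhead motif was searched as AACCGG. No matches overlapped each other.
ZEB1, chr10:31318966-31319265, plus strand: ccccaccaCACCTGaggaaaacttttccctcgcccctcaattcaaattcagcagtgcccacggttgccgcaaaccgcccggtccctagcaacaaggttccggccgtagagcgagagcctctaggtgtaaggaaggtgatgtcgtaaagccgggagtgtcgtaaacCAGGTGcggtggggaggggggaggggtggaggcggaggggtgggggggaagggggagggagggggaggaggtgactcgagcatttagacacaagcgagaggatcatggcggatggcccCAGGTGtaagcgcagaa
ZEB2, chr2:144520070-144520369, minus strand: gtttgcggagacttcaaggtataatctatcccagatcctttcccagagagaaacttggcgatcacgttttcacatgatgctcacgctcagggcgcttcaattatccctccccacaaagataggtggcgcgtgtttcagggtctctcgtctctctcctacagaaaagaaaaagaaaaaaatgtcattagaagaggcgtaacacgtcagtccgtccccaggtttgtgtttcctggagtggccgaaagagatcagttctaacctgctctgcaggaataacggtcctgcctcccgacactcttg
The ZEB1 window shown holds 3 E-box matches, 242 and 85 bases before the start and 33 bases after it. It is 1 of 7 ZEB1 windows in the table and the one with the most matches. Another holds a single E-box match, 57 bases before its start, and another a SMAD match, 245 bases before its start. The remaining ZEB1 windows hold no match. The ZEB2 window holds no match to the 4 motifs. Over the 13 windows of the 6 members in the table (CDH2, VIM, ZEB1, ZEB2, FN1 and TGFBI), the E-box was found in 2, both of ZEB1, against 20.6% of 35116 promoters of the same length. The AP-1 site was in 1 window (7.71% of all promoters), the SMAD element in 2 (16.9%) and the grainyhead motif in 0 (7.23%). These matches describe the sequence and are not evidence of binding.

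CDH2 (ENSG00000170558, chromosome 18, 27950966 to 28177446, minus strand) encodes N-cadherin, the cadherin that typically replaces E-cadherin in mesenchymal cells. It was at 25.1 and 51.1 CPM in Addback EDTA and at 53.6 and 51.4 CPM in Addback NA. It was at 19.6 and 16.2 CPM in B4-4 EDTA and at 21.9 and 15.2 CPM in B4-4 NA. Vector EDTA had 28.5 and 27.5 CPM, against 8.24 and 6.94 CPM in Vector NA. The Vector NA libraries were lowest and overlapped no other group, and the Addback NA libraries were highest, just above Addback EDTA 2. CDH2 rose with EDTA in Vector (1.88 ± 0.30, adjusted p = 0.00302). In B4-4 the change was -0.05 ± 0.29 (adjusted p = 0.915) and in Addback -0.46 ± 0.28 (adjusted p = 0.283). Without Addback EDTA 2, the library at 51.1 CPM, the change in Addback was -1.06 (adjusted p = 0.0107).

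VIM (ENSG00000026025, chromosome 10, 17228259 to 17237593, plus strand), which encodes the intermediate filament protein vimentin, was at 428 and 474.5 CPM in Addback EDTA and at 506 and 532 CPM in Addback NA. It was at 462 and 471 CPM in B4-4 EDTA, against 331 and 516 CPM in B4-4 NA. The Vector EDTA libraries had 674 and 608 CPM, against 351 and 335 CPM in Vector NA. Vector EDTA was highest without overlap, and the 2 libraries of B4-4 NA spanned most of the remaining range. Across all libraries VIM varied only 2.04-fold. It rose with EDTA in Vector (0.90 ± 0.16, adjusted p = 0.00325). The change in B4-4 was 0.14 ± 0.16 (adjusted p = 0.567), and without B4-4 NA 2 it was 0.50 (adjusted p = 0.00389). In Addback it was -0.20 ± 0.16 (adjusted p = 0.418). VIM-AS1, which shares 641 bases of exon with VIM on the other strand, was at 0.827 to 3.25 CPM, far below VIM.

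The upstream promoters of CDH2 and VIM are printed because both genes rose with EDTA in Vector, in the same layout as above.
CDH2, chr18:28177081-28177380, minus strand: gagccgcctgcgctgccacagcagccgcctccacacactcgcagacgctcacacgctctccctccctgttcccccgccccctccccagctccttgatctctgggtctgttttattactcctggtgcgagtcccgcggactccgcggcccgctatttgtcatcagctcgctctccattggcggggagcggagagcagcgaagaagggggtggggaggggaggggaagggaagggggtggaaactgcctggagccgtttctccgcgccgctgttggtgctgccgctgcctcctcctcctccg
VIM, chr10:17227991-17228290, plus strand: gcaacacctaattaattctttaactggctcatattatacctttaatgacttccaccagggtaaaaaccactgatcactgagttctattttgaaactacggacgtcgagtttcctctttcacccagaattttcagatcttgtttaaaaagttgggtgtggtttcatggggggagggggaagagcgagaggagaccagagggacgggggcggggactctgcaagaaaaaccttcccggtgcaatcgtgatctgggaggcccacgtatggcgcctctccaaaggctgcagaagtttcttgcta
Neither window holds a match to the 4 motifs. They differ in base composition, with 67% G and C in the CDH2 window and 48% in the VIM window. A further CDH2 window, at an internal start, holds an AP-1 match 102 bases and a SMAD match 180 bases before that start.

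FN1 (ENSG00000115414, chromosome 2, 215360440 to 215436172, minus strand) encodes fibronectin, a matrix protein bound by several integrins. It was at 191 and 784 CPM in Addback EDTA and at 595 and 580.2 CPM in Addback NA. It was at 608 and 609.9 CPM in B4-4 EDTA, against 36.8 and 112 CPM in B4-4 NA. The Vector EDTA libraries had 101 and 104 CPM, against 109 and 106 CPM in Vector NA. The B4-4 EDTA and Addback NA libraries were high and close within each pair, all 4 Vector libraries were low, and the 2 libraries of Addback EDTA and of B4-4 NA were 2.04 and 1.61 apart on the log2 scale. FN1 rose with EDTA in B4-4 (3.03 ± 0.75, adjusted p = 0.0365). The call ended without the filter on low counts (adjusted p = 0.06835) and with the B4-4 groups fitted alone (adjusted p = 0.06705). That call ended when any of 9 libraries was left out (adjusted p = 0.05745 to 0.134). In Vector the EDTA change was -0.07 ± 0.70 (adjusted p = 0.962) and in Addback -0.27 ± 0.69 (adjusted p = 0.831). All 6 groups share a single estimate of the spread per gene, so the SE in Vector is not the spread of the Vector libraries. The pairs of Vector EDTA and Vector NA were 0.049 and 0.039 apart on the log2 scale.

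TGFBI (ENSG00000120708, chromosome 5, 136028895 to 136063818, plus strand), which encodes a secreted matrix protein induced by TGF-β, was at 1093 and 1635 CPM in Addback EDTA and at 1069 and 1064 CPM in Addback NA. It was at 2584 and 2638 CPM in B4-4 EDTA, against 899.6 and 1261 CPM in B4-4 NA. The Vector EDTA libraries had 1182 and 1249 CPM, against 881 and 877 CPM in Vector NA. The 2 B4-4 EDTA libraries stood above the 10 others, the nearest being Addback EDTA 2 at 1635 CPM. TGFBI rose with EDTA in B4-4 (1.27 ± 0.18, adjusted p = 0.00116), and the log2 fold change stayed between 1.05 and 1.54 when single libraries were left out. In Vector it was 0.47 ± 0.18 (adjusted p = 0.0986) and in Addback 0.35 ± 0.18 (adjusted p = 0.193). The Vector value passed the threshold with DESeq2 (adjusted p = 0.04395) and with Vector fitted alone (adjusted p = 0.00042).

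OVOL1 (ENSG00000172818, chromosome 11, 65787022 to 65797219, plus strand) encodes a zinc-finger repressor that restrains mesenchymal genes in epithelia. It had 6 and 10 counts in Addback EDTA (0.351 and 0.569 CPM), against 58 and 39 counts in Addback NA (3.245 and 2.11 CPM). In B4-4 EDTA there were 8 and 13 counts (0.414 and 0.692 CPM), against 29 and 9 in B4-4 NA (1.665 and 0.575 CPM). In Vector EDTA there were 2 and 5 counts (0.0927 and 0.222 CPM), against 38 and 51 in Vector NA (2.13 and 2.62 CPM). The EDTA and NA libraries overlapped in B4-4 and not in Addback or Vector. OVOL1 fell with EDTA in Vector (-3.85 ± 0.59, adjusted p = 0.00134) and in Addback (-2.52 ± 0.52, adjusted p = 0.00719). The call in Addback ended without Addback NA 1 (adjusted p = 0.0817). From the pooled counts, the ratio of EDTA over NA was 0.173 in Addback (95% exact interval 0.095 to 0.295), 0.48 in B4-4 (0.267 to 0.838) and 0.0664 in Vector (0.026 to 0.143). These intervals cover counting error only. With the spread between libraries included, the change in B4-4 was -1.03 ± 0.54 (adjusted p = 0.198).

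ESRP1 (ENSG00000104413, chromosome 8, 94641074 to 94707466, plus strand), a splicing factor that sets epithelial exon choices, was at 126 and 128 CPM in Addback EDTA and at 122 and 119.6 CPM in Addback NA. It was at 151.5 and 149.5 CPM in B4-4 EDTA and at 154 and 165 CPM in B4-4 NA. Vector EDTA had 211 and 182 CPM and Vector NA 236 and 225 CPM. The 6 groups did not overlap, and they fell in the order of the derivatives, with both Vector groups above both B4-4 groups and these above both Addback groups. No EDTA change of ESRP1 passed the threshold. It was 0.08 ± 0.09 in Addback (adjusted p = 0.625), -0.09 ± 0.09 in B4-4 (adjusted p = 0.546) and -0.23 ± 0.09 in Vector (adjusted p = 0.118). The Vector change passed when only the 4 groups with close pairs were fitted (adjusted p = 0.0184). These are all groups but B4-4 NA and Addback EDTA, and that alternative was chosen after seeing the data. Choosing close pairs lowers the spread that the test uses, so this p-value gives no separate support.

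GRHL2 (ENSG00000083307, chromosome 8, 101492432 to 101669726, plus strand), a grainyhead-like activator of epithelial junction genes, had 2 counts in all 12 libraries. They were 1 count in Addback NA 2 (0.0542 CPM) and 1 in B4-4 NA 1 (0.0574 CPM). The 10 libraries at 0 allow a level of up to 0.133 to 0.192 CPM, from the 3 counts that a count of 0 allows. No difference in GRHL2 was detectable at this depth.

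**Figure D2:**
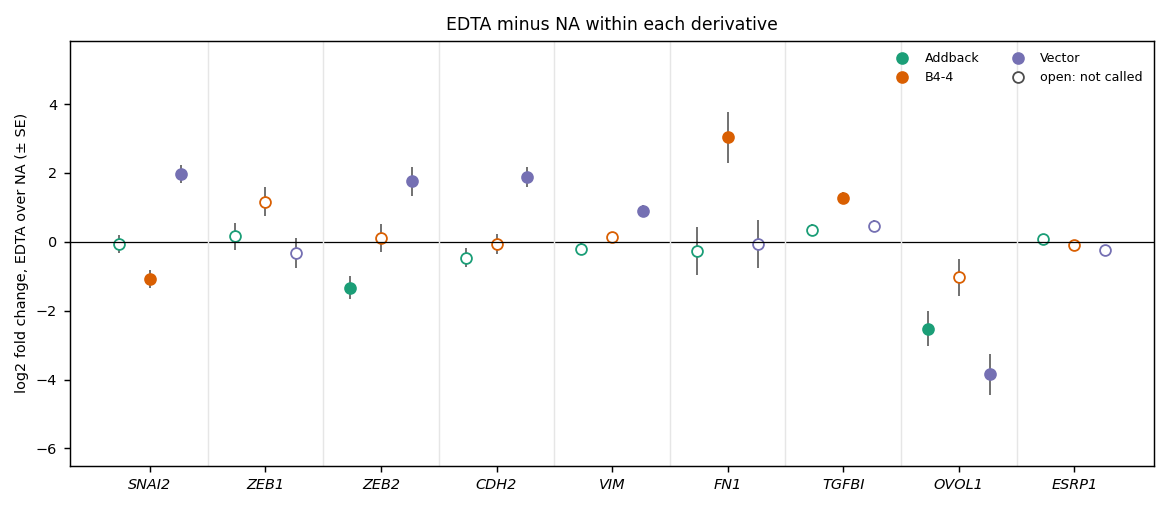
Log2 fold change of EDTA over NA for 9 members (points, with SE bars) in Addback, B4-4 and Vector; filled points are called at an adjusted p under 0.05 and open points are not. SNAI2, CDH2, VIM and ZEB2 are above 0 and OVOL1 is below 0 in Vector, while FN1 and TGFBI are above 0 in B4-4.

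The comparison of EDTA with NA within a derivative asks how the chelator changes these genes in cells that were all detached. In Addback, 0 of the 9 tested members rose and 2 fell, ZEB2 and OVOL1, when 16.9% of all 15749 genes tested were called by edgeR's quasi-likelihood test, 8.64% higher and 8.29% lower. In B4-4, FN1 and TGFBI rose and SNAI2 fell, 3 of 9, against 19.9% of all genes (9.88% higher and 10% lower). In Vector, SNAI2, CDH2, VIM and ZEB2 rose and OVOL1 fell, 5 of 9, against 15.3% of all genes (6.36% higher and 8.98% lower). The members' median log2 change was -0.20 in Addback, 0.11 in B4-4 and 0.47 in Vector. The median of all genes was 0.0148 in Addback, -0.0107 in B4-4 and 0.000761 in Vector. Leaving out single libraries moved the member counts to 0 to 3 in Addback, 1 to 4 in B4-4 and 4 to 7 in Vector.

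The EDTA changes themselves differed between derivatives. Against Vector, the EDTA change in Addback was lower by a log2 difference of -2.04 ± 0.37 for SNAI2, -2.34 ± 0.41 for CDH2, -1.10 ± 0.22 for VIM and -3.09 ± 0.53 for ZEB2. These were 4 of 9 members, all lower, against 24.2% of all genes called in that test (13.4% higher and 10.8% lower). For these 4, no left-out library ended the call. Against Vector, the EDTA change in B4-4 was lower for SNAI2 (-3.05 ± 0.37), CDH2 (-1.94 ± 0.42) and VIM (-0.76 ± 0.22), and higher for TGFBI (0.81 ± 0.25) and OVOL1 (2.82 ± 0.85). These were 5 of 9, against 27.0% of all genes (14.4% higher and 12.6% lower). The differences for SNAI2 and CDH2 kept their calls without any library, while those for VIM, TGFBI and OVOL1 ended without 5, 9 and 4 of the 12 libraries. Without B4-4 NA 2, the difference for VIM was -0.40 (adjusted p = 0.0287). Between Addback and B4-4, TGFBI was the 1 member called (-0.92 ± 0.25, adjusted p = 0.04405), against 8.78% of all genes (4.22% higher and 4.57% lower). That call ended without any of 10 libraries (adjusted p = 0.0525 to 0.149). The tests against Vector share the Vector libraries.

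**Figure D3:**
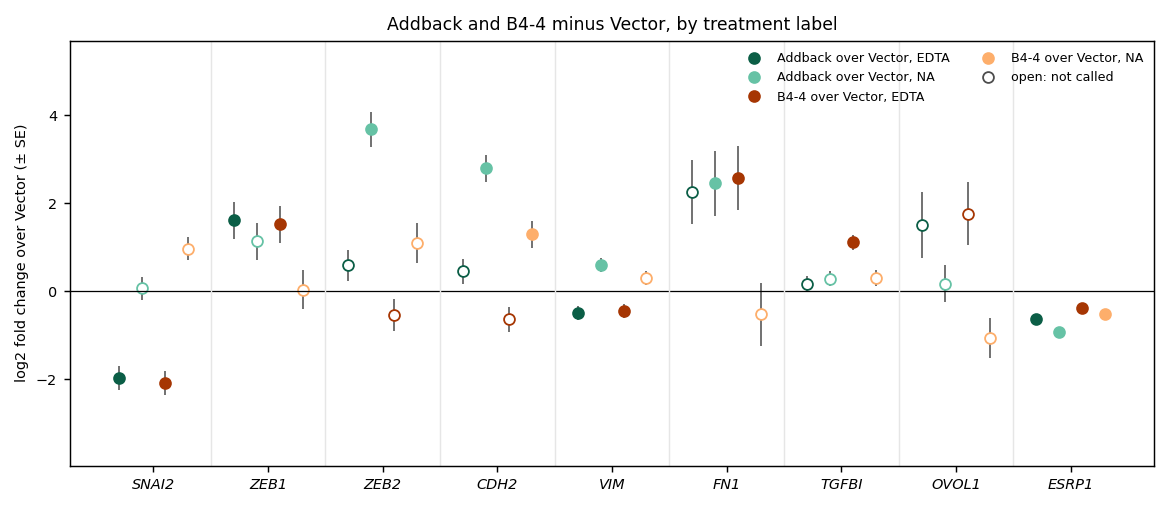
Log2 fold change of Addback or B4-4 over Vector for 9 members (points, with SE bars), for EDTA and NA libraries separately; filled points are called at an adjusted p under 0.05 and open points are not. ESRP1 is below 0 in all 4 comparisons, and CDH2 and ZEB2 are highest for Addback over Vector in NA.

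Comparing the derivatives under the same treatment label asks how the members vary between them. ITGB4 itself was not called for Addback over Vector: -0.73 ± 0.29 in NA (adjusted p = 0.0768) and -0.34 ± 0.28 in EDTA (adjusted p = 0.404). The NA value passed the threshold with DESeq2 (adjusted p = 0.00773). For B4-4 over Vector, ITGB4 was called, at -2.62 ± 0.30 in NA (adjusted p = 0.00334) and -2.21 ± 0.30 in EDTA (adjusted p = 0.000544). That NA call ended with the compared groups fitted alone (adjusted p = 0.131). In NA libraries, Addback stood above Vector for CDH2, by 2.79 ± 0.31 (adjusted p = 0.000107), and for ZEB2, by 3.68 ± 0.40 (adjusted p = 3.6e-05). VIM was higher by 0.60 ± 0.16 (adjusted p = 0.0125) and FN1 by 2.45 ± 0.73 (adjusted p = 0.0412). ESRP1 was lower by a log2 change of -0.93 ± 0.09 (adjusted p = 2.13e-05). That is 5 of 9 members, against 36.1% of all genes (17.9% higher and 18.1% lower). The call for FN1 ended when any of 8 libraries was left out (adjusted p = 0.0611 to 0.172) and that for VIM without Vector NA 2, Addback NA 1 or Addback NA 2 (adjusted p = 0.05025 to 0.0739). Without the filter on low counts, the call for FN1 ended (adjusted p = 0.0917). When only the 4 groups with close pairs were fitted, an alternative chosen after seeing the data, the adjusted p was 1.87e-13 for FN1 and 1.39e-06 for VIM. Genes not called in the main fit also passed there. They were ITGB4 (-0.73, adjusted p = 8.05e-08), ZEB1 (1.13, adjusted p = 0.0023) and TGFBI (0.28, adjusted p = 0.00041). Choosing groups for their close pairs lowers the spread that the test uses, so these p-values give no separate support.

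In EDTA libraries, Addback differed from Vector in SNAI2 (-1.97 ± 0.27, adjusted p = 0.000722), VIM (-0.51 ± 0.16, adjusted p = 0.0309) and ESRP1 (-0.63 ± 0.09, adjusted p = 0.000511), all lower. ZEB1 was higher (1.61 ± 0.42, adjusted p = 0.0129). These 4 of 9 compare with 30.0% of all genes (16.1% higher and 14.0% lower). CDH2 and ZEB2, both higher in Addback in the NA libraries, had 0.45 ± 0.28 (adjusted p = 0.254) and 0.59 ± 0.35 (adjusted p = 0.228) here. The calls for SNAI2 and ZEB1 ended when the 2 groups were fitted alone (adjusted p = 0.0687 and 0.0622). The call for ZEB1 also ended without Vector EDTA 2 (adjusted p = 0.101) or Addback EDTA 2 (log2 change 0.79, adjusted p = 0.1775), and that for VIM without any of the 4 libraries compared.

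B4-4 and Vector, whose ITGB4 levels differed most between derivatives, were compared in NA libraries first. CDH2 was higher in B4-4 (1.29 ± 0.31, adjusted p = 0.0348) and ESRP1 lower (-0.53 ± 0.09, adjusted p = 0.00734), 2 of 9 against 7.16% of all genes (3.38% higher and 3.78% lower). SNAI2 was at 129 and 142 CPM in B4-4 NA, against 69.2 and 70.3 CPM in Vector NA, a difference of 0.96 ± 0.26 (adjusted p = 0.0587). The call for CDH2 ended with the replicate number as a block (adjusted p = 0.0561), with the groups fitted alone (adjusted p = 0.153) and without any of 9 libraries. That for ESRP1 ended with the groups fitted alone (adjusted p = 0.151) and without either Vector NA library (adjusted p = 0.1025 and 0.0652).

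In EDTA libraries, B4-4 was above Vector in ZEB1 (1.52 ± 0.42, adjusted p = 0.0117), FN1 (2.57 ± 0.74, adjusted p = 0.0302) and TGFBI (1.10 ± 0.18, adjusted p = 0.00059). It was below Vector in SNAI2 (-2.09 ± 0.27, adjusted p = 0.000296), VIM (-0.46 ± 0.16, adjusted p = 0.0347) and ESRP1 (-0.38 ± 0.09, adjusted p = 0.00582). These 6 of 9 members stand against 43.4% of all genes (22.9% higher and 20.4% lower). The mesenchymal members thus moved in both directions. The calls for SNAI2, TGFBI and ESRP1 held without any single library, while those for ZEB1, FN1 and VIM ended without 2, 8 and 6 of the 12. Without the filter on low counts, the call for FN1 ended (adjusted p = 0.0682). The 4 groups of close pairs alone, an alternative chosen after seeing the data, gave FN1 an adjusted p of 8.79e-14. CDH2 (-0.64) and OVOL1 (1.76), not called in the main fit, also passed there. Choosing groups for their close pairs lowers the spread that the test uses. These p-values therefore give no separate support.

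Addback, in which ITGB4 was higher than in B4-4, was compared with B4-4 directly. In NA libraries CDH2 (1.496 ± 0.286, adjusted p = 0.00504), ZEB2 (2.58 ± 0.37, adjusted p = 0.000507) and FN1 (2.98 ± 0.75, adjusted p = 0.0325) were higher in Addback. SNAI2 (-0.90 ± 0.26, adjusted p = 0.0352) and ESRP1 (-0.40 ± 0.09, adjusted p = 0.00936) were lower, making 5 of 9 against 23.6% of all genes (11.3% higher and 12.3% lower). In EDTA libraries, CDH2 was higher (1.09 ± 0.28, adjusted p = 0.0314) and TGFBI lower (-0.94 ± 0.18, adjusted p = 0.00596), 2 of 9 against 14.1% of all genes (6.54% higher and 7.54% lower). The calls for CDH2 and ZEB2 in NA and for TGFBI in EDTA held without any library. Those for FN1 and SNAI2 in NA ended without 9 and 10 of the 12, that for ESRP1 without either Addback NA library, and that for CDH2 in EDTA without 7. Without Addback EDTA 2, CDH2 differed by 0.48 in EDTA (adjusted p = 0.133). With the groups fitted alone, the calls for FN1 and ESRP1 in NA (adjusted p = 0.0559 and 0.0785) and CDH2 in EDTA (adjusted p = 0.168) ended. The replicate block also ended the last of these (adjusted p = 0.05215). Without the filter on low counts, the call for FN1 in NA ended (adjusted p = 0.065).

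Over the 9 comparisons of 2 groups, ESRP1 was called in 5, each time lower, all 5 between derivatives. CDH2 was called in 5, each time higher. SNAI2 was called higher in 1 and lower in 4, VIM higher in 2 and lower in 2, ZEB2 higher in 3 and lower in 1. FN1 was called higher in 4, ZEB1 higher in 2, TGFBI higher in 2 and lower in 1, and OVOL1 lower in 2. Higher and lower refer to the group named first: EDTA over NA, B4-4 over Vector, and Addback over B4-4 or Vector. The directions are therefore not a property of the gene alone. Each comparison called between 7.16% and 43.4% of all genes. Many of these comparisons share libraries, so the counts are not independent.

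As a description over the 12 libraries, which form 6 pairs, the log2 level of ZEB2 followed that of CDH2 (r = 0.948) and FN1 that of ZEB1 (r = 0.84). ESRP1 ran against CDH2 (r = -0.776) and ZEB2 (r = -0.77), and SNAI2 against ZEB1 (r = -0.74). SNAI2 and CDH2, which both rose with EDTA in Vector, had r = 0.0187 over the 12 libraries.

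**Figure D4:**
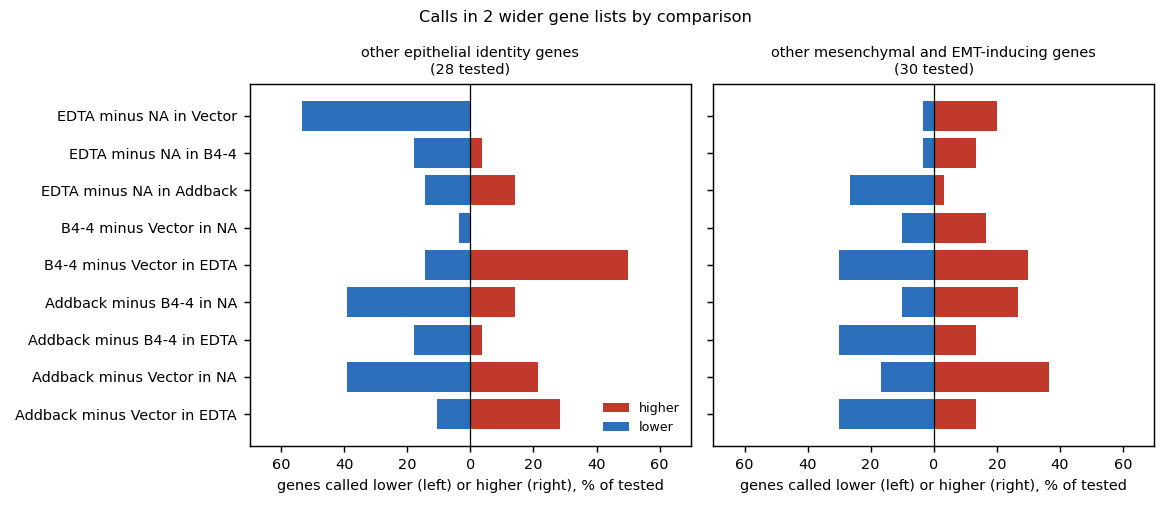
Share of tested genes called higher (right, red) or lower (left, blue) in 9 comparisons, for 28 other epithelial identity genes and 30 other mesenchymal and EMT-inducing genes. In Vector, 15 of the epithelial genes were lower and 0 higher with EDTA; in EDTA libraries 14 of them were higher in B4-4 than in Vector.

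The members were set beside a wider list of 30 epithelial identity genes, 28 of them tested. With EDTA in Vector, 0 of the 28 rose and 15 fell, where 6.36% of all genes rose and 8.98% fell. The list median was -0.57, against 0.000761 over all genes. ELF3, an epithelial ETS factor, changed by -2.26 ± 0.36, GRHL1, a grainyhead-like factor, by -1.59 ± 0.24, and PRSS8, the membrane protease prostasin, by -1.17 ± 0.14. CDH1 averaged 196 ± 5.36 CPM in Vector EDTA and 341 ± 8.575 CPM in Vector NA (SD, n = 2 each), a change of -0.80 ± 0.16 (adjusted p = 0.00684), and its call ended without Vector EDTA 1 (adjusted p = 0.0554). The count of 15 was 6 without Vector EDTA 1 and 17 without B4-4 NA 1. The sum of the 9 basal mammary markers was 11798 to 12175 CPM in Vector EDTA, against 16389 to 16496 CPM in Vector NA. Of these 9 markers, 0 were called higher and 4 lower, and their part in this result was not tested. CDH1, CDH3 and TP63 are in both lists, so the lists are not separate readings.

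In B4-4, 6 of the 28 were called, a share near the 19.9% of all genes. ESRP2 rose and 5 genes fell, among them PRSS8 (-0.70 ± 0.14) and ELF3 (-1.06 ± 0.31). The calls for ESRP2, PRSS8 and ELF3 ended without 10, 1 and 7 of the 12 libraries, and the count of lower genes was 0 without B4-4 EDTA 1, 8 without Addback EDTA 1 and 0 with B4-4 fitted alone. In Addback, 4 rose and 4 fell, where 8.64% of all genes rose and 8.29% fell. GRHL3, a grainyhead-like factor of the epidermis, fell by 2.15 ± 0.21 on the log2 scale, whereas OVOL2, the paralogue of OVOL1, rose by 1.71 ± 0.30. The count of higher genes was 2 without Addback NA 1 and 9 without Addback EDTA 1.

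Between derivatives, the epithelial list had 14 genes higher and 4 lower in EDTA libraries of B4-4 against Vector, with a median of 0.49, where 22.9% of all genes were higher and 20.4% lower. ESRP2, the paralogue of ESRP1, was higher by 1.07 ± 0.13 and CDH1 by 1.22 ± 0.16, while ESRP1 itself was lower. Without B4-4 EDTA 2 there were 8 higher and 2 lower. The summed basal markers were at 17132 to 18002 CPM in B4-4 EDTA, against 11798 to 12175 CPM in Vector EDTA, with 4 of 9 higher, and their part in this result was not tested. In NA libraries the same 2 derivatives differed in 1 of 28 genes, PRSS8 (-0.51 ± 0.14, adjusted p = 0.0441), a count that was 0 to 3 without single libraries, where 7.16% of all genes were called. Addback against Vector had 6 higher and 11 lower in NA libraries, with a median of -0.43, where 17.9% of all genes were higher and 18.1% lower. The basal markers summed to 10628 to 11131 CPM in Addback NA, against 16389 to 16496 CPM in Vector NA, with 6 of 9 lower, and their part was not tested. In EDTA libraries 8 were higher and 3 lower, where 16.1% of all genes were higher and 14.0% lower. The higher count was 4 without Vector EDTA 1 and the lower count 0 without Vector EDTA 2. In NA libraries GRHL1 (-2.33 ± 0.26), PRSS8 (-1.58 ± 0.14) and OVOL2 (-1.94 ± 0.30) were lower in Addback. Addback against B4-4 had 4 higher and 11 lower in NA libraries, with a median of -0.59, where 23.6% of all genes were called. Without Addback NA 1 there were 2 higher and 6 lower, and without Addback EDTA 1 there were 17 lower. The basal markers summed to 10628 to 11131 CPM in Addback NA, against 12950 to 13697 CPM in B4-4 NA. In EDTA libraries 1 was higher and 5 lower, 6 of 28, where 14.1% of all genes were called. The higher count was 5 without Addback EDTA 1, and the lower count was 2 without B4-4 EDTA 1 and 9 without Addback EDTA 2.

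A second list held 35 other mesenchymal and EMT-inducing genes, of which 30 were tested. With EDTA, 1 rose and 8 fell in Addback, 4 rose and 1 fell in B4-4, and 6 rose and 1 fell in Vector. These are 9, 5 and 7 of 30, where 16.9%, 19.9% and 15.3% of all genes were called in Addback, B4-4 and Vector. In Addback, COL6A1, a collagen VI chain, averaged 11.9 ± 1.23 CPM in EDTA and 39.5 ± 0.27 CPM in NA (SD, n = 2 each; log2 change -1.73 ± 0.15). ITGA5, the fibronectin receptor α subunit, changed by -1.19 ± 0.12 and SOX9 by -2.27 ± 0.27 there. In B4-4 the matrix glycoprotein gene TNC rose by 2.76 ± 0.22, with 134 ± 6.42 CPM in EDTA and 19.8 ± 2.69 CPM in NA. In Vector, SOX4, a TGF-β-induced transcription factor, rose by 1.60 ± 0.15, while in Addback it fell by 1.25 ± 0.15. The count of higher genes in Addback was 4 without Addback EDTA 1. In B4-4 it was 2 without B4-4 EDTA 1 and 8 without B4-4 NA 2. In Vector it was 1 without Vector NA 1.

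In NA libraries, Addback had 11 of these genes higher and 5 lower than Vector, where 36.1% of all genes were called, and the lower count was 1 without Addback NA 2. Of all genes, 17.9% were higher and 18.1% lower in that comparison. Higher genes of the list included COL6A1 (2.60 ± 0.15), S100A4 (3.66 ± 0.34), an S100 protein of fibroblasts and motile cells, and SOX4 (1.63 ± 0.15). In EDTA libraries the same derivatives had 4 higher and 9 lower, against 30.0% of all genes, and the higher count was 7 without B4-4 NA 1. Of all genes, 16.1% were higher and 14.0% lower in Addback EDTA than in Vector EDTA. There SPARC, a matrix-binding protein, was at 29.2 ± 10.2 CPM in Addback and 78.4 ± 1.32 CPM in Vector. B4-4 against Vector had 5 higher and 3 lower in NA, against 7.16% of all genes, and 0 of either without Vector NA 1 or with the groups fitted alone. In EDTA it had 9 higher and 9 lower, against 43.4% of all genes (22.9% higher and 20.4% lower), and TNC was higher by 3.33 ± 0.23. The lower count there was 5 without B4-4 EDTA 1. Addback against B4-4 had 8 higher and 3 lower in NA, against 23.6% of all genes, with 0 lower without Addback NA 1 and 7 lower without B4-4 NA 1. In EDTA it had 4 higher and 9 lower, against 14.1% of all genes, with 5 lower without B4-4 EDTA 1. By direction, 3.38% of all genes were higher and 3.78% lower for B4-4 against Vector in NA. For Addback against B4-4 these shares were 11.3% and 12.3% in NA, and 6.54% and 7.54% in EDTA. SNAI1, which encodes the repressor SNAIL, was called in 0 of the 9 comparisons of 2 groups, with an adjusted p of at least 0.5458 in each. It was at 1.02 to 3.04 CPM and had 425 counts over the 12 libraries, fewer than the 816 of ZEB1. A change in SNAI1 could be missed at this depth. TWIST1, a further EMT-inducing transcription factor, was lower than Vector in EDTA libraries of Addback (-0.68 ± 0.19, adjusted p = 0.0182) and of B4-4 (-0.86 ± 0.19, adjusted p = 0.00344). The first of these ended without Vector EDTA 1, Vector EDTA 2 or Addback EDTA 1 (adjusted p = 0.0601 to 0.093).

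Markers of other cell types moved with several of these results. The summed level of the 8 fibroblast markers was 34.8 to 65.5 CPM in Addback EDTA, 46.05 to 47.2 CPM in Addback NA, 14.3 to 14.8 CPM in B4-4 EDTA, 18.1 to 30.02 CPM in B4-4 NA, 28.4 to 29.1 CPM in Vector EDTA and 15.2 to 16.3 CPM in Vector NA. All 4 tested fibroblast markers (COL1A1, DCN, LUM and PDGFRB) were higher in Addback NA than in Vector NA, as CDH2, ZEB2, VIM and FN1 were. Of the other 4, COL1A2, COL3A1 and THY1 were at most 0.168 CPM and PDGFRA at most 0.448 CPM. The endothelial marker PECAM1 was lower with EDTA in B4-4 (-2.31 ± 0.63, adjusted p = 0.0407) and lower in B4-4 than in Vector in EDTA libraries (-2.78 ± 0.62, adjusted p = 0.00907). It was higher in Addback than in B4-4 in EDTA libraries (2.74 ± 0.63, adjusted p = 0.0278). The part of these markers in the members' changes was not tested.

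By the level pattern over the 12 libraries, the gene most like OVOL1 was AP5B1, an adaptor complex subunit (r = 0.9635 among 10577 genes). AP5B1 lies on the same chromosome (65775893 to 65780802, minus strand), 6219 bases from OVOL1. It was at 32.45 and 37.1 CPM in Addback EDTA, against 149 and 114 CPM in Addback NA. The Vector EDTA libraries had 21.4 and 25.8 CPM, against 86.8 and 85.05 CPM in Vector NA. In B4-4 it was at 46.2 and 49.5 CPM in EDTA and at 63.9 and 41.1 CPM in NA. As for OVOL1, the EDTA libraries lay below the NA libraries in Addback and Vector and overlapped them in B4-4. The closest genes were STX16 for ESRP1 (r = 0.966), BMPR1A for ZEB1 (r = 0.956), CCDC47 for ZEB2 (r = 0.955) and APLP2 for VIM (r = 0.952). For FN1 it was TTL (r = 0.948), for SNAI2 RBM15B (r = 0.946), for TGFBI CRK (r = 0.944) and for CDH2 TLCD3A (r = 0.935). These coefficients are the highest of the 10576 or 10577 genes searched for each member and describe these libraries only.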

How the data were processed

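PolyA RNA (250 ng input) was sequenced as 150 bp paired-end reads from stranded libraries, per the labels' protocols. The authors deposited raw read counts per Ensembl gene, without normalisation. The submitters' processing notes name TopHat2 2.1.1, SAMtools 1.4.1 and featureCounts 1.5.3 and mention GRCh38, hg19 and hg38, with no role stated for any of them. The strand setting is not given in the sources used here. Gene coordinates are from GENCODE 29 (GRCh38), matched by identifier.

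The test was edgeR's quasi-likelihood test (version 4.0.16, R 4.3.3), run after filterByExpr and TMM scaling. A single model with a mean per group and robust dispersions covered the 12 libraries. The 6 groups thus share a single estimate of the spread per gene. An SE can be too wide for groups with close pairs and too narrow for B4-4 NA and Addback EDTA. The filter left 15749 of 58233 genes, holding at least 99.87% of each total. Calls required an adjusted p (Benjamini-Hochberg, across every tested gene) under 0.05. SE was derived from the log2 fold change and its F statistic, and CPM uses TMM-scaled totals. The scripts were tested on simulated data. The labels do not say that replicates were separate cultures, so p-values measure only the spread between these libraries, which may be technical. A difference of EDTA effects is a contrast of 4 groups.

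The members and gene lists were chosen with earlier results of these data known. The 10 members and ITGB4 were followed throughout, with up to 4 called genes of smallest p per list and comparison, and the genes of any count of 5 or fewer could be named. CDH1, SNAI1, TWIST1 and some further values of list genes were chosen after their values were seen. Correlations use log2 CPM with a prior count of 2. Alternatives were RLE size factors, no filter, DESeq2 1.42.0, a replicate block, the compared groups alone, leaving out each library and, added after seeing the data, the 4 groups with close pairs. Differences between replicate numbers correlated little between groups, which does not settle whether the samples were paired. Some list genes that enter the counts are not reported here by name.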

Additional observations from a re-analysis of the deposited data

Results flagged for a closer look

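The change with EDTA differed between derivatives for several members, by edgeR's quasi-likelihood test of the difference itself with Benjamini-Hochberg adjustment. Between Addback and Vector, the log2 differences were -2.04 for SNAI2 (adjusted p = 0.00438), -2.34 for CDH2 (adjusted p = 0.00288), -1.10 for VIM (adjusted p = 0.004585) and -3.09 for ZEB2 (adjusted p = 0.00158). Between B4-4 and Vector, they were -3.05 for SNAI2 (adjusted p = 0.000631), -1.94 for CDH2 (adjusted p = 0.00794), -0.76 for VIM (adjusted p = 0.0262), 0.81 for TGFBI (adjusted p = 0.0343) and 2.82 for OVOL1 (adjusted p = 0.0276). Between Addback and B4-4, the difference for TGFBI was -0.92 (adjusted p = 0.04405). That call, and those for VIM, TGFBI and OVOL1 between B4-4 and Vector, ended in several fits with a library left out, as given above. Of all genes, 24.2% were called between Addback and Vector, 27.0% between B4-4 and Vector and 8.78% between Addback and B4-4. Each group had 2 libraries, so no library could be tested as an outlier.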

How the results depend on the processing

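Of 1863 member values under the alternatives, 1629 stayed on their side of the threshold, 135 lost a call, 99 gained one, and 0 reversed with a call. Among the 1629, 29 values that were not called had the other sign. With no filter, the members called were 4 for EDTA in Addback (2 as reported) and 2 for the difference of EDTA effects between Addback and B4-4 (1 as reported), where DESeq2 gave 3. With the compared groups alone, they were 0 for B4-4 over Vector in NA (2 as reported), 3 and 1 for Addback over B4-4 in NA and EDTA (5 and 2), 2 for Addback over Vector in EDTA (4), and 0 for the difference between Addback and B4-4 (1). The number of all genes called also moved with the processing and with libraries left out, as given below. Whether the member counts moved apart from it was not tested.

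Replicate numbers shared little between groups: over 15 pairs of groups, the correlation of replicate 2 minus replicate 1 was -0.171 to 0.305, with a median of 0.04. It was above 0 in 9 of the 15, and these values do not settle whether the samples were paired. With the replicate block, the members called were 1 for B4-4 over Vector in NA and 1 for Addback over B4-4 in EDTA, each 2 without it; the member that lost its call was CDH2 in both.

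Leaving out single libraries, the members called for EDTA were 0 to 3 in Addback, 1 to 4 in B4-4 and 4 to 7 in Vector. They were 0 to 3 in NA and 3 to 7 in EDTA for B4-4 over Vector, 2 to 6 and 1 to 4 for Addback over B4-4, and 3 to 6 and 2 to 5 for Addback over Vector. For differences of EDTA effects they were 2 to 8 between B4-4 and Vector, 4 to 5 between Addback and Vector, and 0 to 6 between Addback and B4-4. Leaving out B4-4 NA 1 or B4-4 NA 2, the ITGB4 difference of EDTA effects between Addback and B4-4 was 0.43 or -0.68 (-0.02 as reported, uncalled), and the EDTA change of SOX9 in B4-4 was 0.52 or -0.43 (-0.04 as reported, uncalled).

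All genes called moved most with B4-4 over Vector in NA, from 1128 as reported to 6 with these groups alone, 1874 with no filter and 81 to 3319 leaving out libraries. EDTA in B4-4 called 3138 as reported, 308 alone and 726 to 4549 leaving out libraries. EDTA in Vector called 2416 as reported, 4664 alone, 5653 with the 4 close groups and 724 to 4020 leaving out libraries; EDTA in Addback called 2666, and 615 to 4319. Addback over Vector called 5681 in NA (9436 alone, 3137 to 7269) and 4728 in EDTA (2718 to 6216). Addback over B4-4 called 3723 in NA (1288 alone, 1324 to 4680) and 2217 in EDTA (692 to 3756). B4-4 over Vector in EDTA called 6831 (4383 to 8169). Differences of EDTA effects called 1383 between Addback and B4-4 (640 alone, 2103 with no filter, 403 to 2994), 3818 between Addback and Vector (2138 to 5346) and 4249 between B4-4 and Vector (2364 to 5515). The cause was not tested. Among the members, depth limits OVOL1, ZEB1, ZEB2 and GRHL2 most.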
